A study of Mus musculus with 8 samples.

Results

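The lateral and caudal ganglionic eminences (LGE and CGE) of the embryonic mouse forebrain were compared by chromatin accessibility in 4 samples, 2 labelled LGE and 2 labelled CGE, of the 8 samples of the series. The members were chosen by their region label alone. The 4 samples held 19889 of 39253 nuclei. LGE 1 and LGE 2 held 6577 and 4769 nuclei with 123925674 and 80488152 counts in peaks, and CGE 1 and CGE 2 held 4013 and 4530 nuclei with 87330827 and 87733388 counts. Both groups were wild-type mouse tissue taken at E12.5 (embryonic day), and the 2 samples of the medial ganglionic eminence (MGE), which entered the fits to add to the estimate of the spread, shared that genotype and age. The cortex (CTX) samples, 1 of E12.5 and 1 of E14.5, stayed outside the main fits and entered only an alternative with all 8 samples. Whole dissected regions were used, so each sample mixed dividing progenitors, young neurons and some non-neural cells. In sums over nuclei, fewer nuclei of a type and less signal per nucleus cannot be told apart. The labels do not say that same-region samples came from separate litters, so the p-values measure the spread between these samples only, which may be technical. Pairs of these 4 libraries shared few nuclear barcodes, at most 47 (1.17% of the smaller library, CGE 1 with LGE 1).

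The ganglionic eminences are transient swellings of the ventral telencephalon that generate GABAergic neurons. The LGE is known for striatal projection neurons and olfactory bulb interneurons, and the CGE for cortical interneurons that express the nuclear receptors Nr2f1 and Nr2f2 (COUP-TFI and COUP-TFII). Both lie outside the Nkx2-1 territory of the MGE, and progenitors of both use Gsx2 and the Dlx homeobox genes. ATAC-seq cuts and tags DNA that nucleosomes leave open, so that counts in a peak measure how accessible a promoter or an enhancer is.

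A short set of sequences gives examples of regions that differed. Each is the central 300 bp of a region that stood among the widest apart between LGE and CGE, read from GRCm38 on the plus strand. Capitals mark matches, on either strand, to 12 short motifs given by their letters: AGGTCA (nuclear receptor half-site), TAATTA (homeodomain), CAGCTG and CATCTG (E-boxes of bHLH factors), ATGCAAAT (POU), TGACAG (MEIS), CCCNNGGG (EBF), ACAATG (SOX), TTGGCA (nuclear factor I), GGAATG (TEAD), GTAAACA (forkhead) and CCGGAAG (ETS). The homeodomain, CAGCTG and EBF letters read the same on both strands. A match is a description of letters and not a bound site. The first 3 lay in regions higher in LGE, near Nedd1 (chr10:92091883-92092182), Nars2 (chr7:96943872-96944171) and B3galt1 (chr2:68283230-68283529), and the other 3 in regions higher in CGE, near Ptprg (chr14:12082272-12082571), Uncx (chr5:139568228-139568527) and Etaa1 (chr11:17750489-17750788).
Nedd1 region: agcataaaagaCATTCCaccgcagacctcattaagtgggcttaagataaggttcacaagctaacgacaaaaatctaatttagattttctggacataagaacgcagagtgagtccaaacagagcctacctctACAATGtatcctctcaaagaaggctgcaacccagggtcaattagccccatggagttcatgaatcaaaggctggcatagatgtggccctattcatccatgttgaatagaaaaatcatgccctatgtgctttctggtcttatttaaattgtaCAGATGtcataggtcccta
Nars2 region: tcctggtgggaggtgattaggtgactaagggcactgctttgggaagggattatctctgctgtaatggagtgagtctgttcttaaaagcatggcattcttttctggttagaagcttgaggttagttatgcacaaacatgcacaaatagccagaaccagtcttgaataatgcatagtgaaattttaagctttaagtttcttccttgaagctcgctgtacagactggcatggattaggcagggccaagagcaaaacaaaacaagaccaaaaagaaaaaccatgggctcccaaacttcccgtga
B3galt1 region: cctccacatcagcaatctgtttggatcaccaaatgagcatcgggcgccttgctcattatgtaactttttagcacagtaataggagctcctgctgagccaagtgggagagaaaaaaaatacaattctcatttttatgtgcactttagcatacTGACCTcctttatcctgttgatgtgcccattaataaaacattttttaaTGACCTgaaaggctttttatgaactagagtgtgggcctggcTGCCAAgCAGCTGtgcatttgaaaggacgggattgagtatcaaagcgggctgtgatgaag
Ptprg region: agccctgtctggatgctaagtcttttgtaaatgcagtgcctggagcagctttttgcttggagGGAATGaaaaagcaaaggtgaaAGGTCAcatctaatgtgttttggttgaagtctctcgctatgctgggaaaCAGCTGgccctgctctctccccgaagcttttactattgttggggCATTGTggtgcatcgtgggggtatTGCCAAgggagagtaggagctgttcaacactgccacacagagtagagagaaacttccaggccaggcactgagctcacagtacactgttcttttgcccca
Uncx region: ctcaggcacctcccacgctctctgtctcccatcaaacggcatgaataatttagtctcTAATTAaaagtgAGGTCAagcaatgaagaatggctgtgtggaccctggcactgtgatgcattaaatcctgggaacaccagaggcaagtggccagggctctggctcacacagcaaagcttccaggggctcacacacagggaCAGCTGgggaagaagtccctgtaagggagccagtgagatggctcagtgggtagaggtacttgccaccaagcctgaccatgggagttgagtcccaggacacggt
Etaa1 region: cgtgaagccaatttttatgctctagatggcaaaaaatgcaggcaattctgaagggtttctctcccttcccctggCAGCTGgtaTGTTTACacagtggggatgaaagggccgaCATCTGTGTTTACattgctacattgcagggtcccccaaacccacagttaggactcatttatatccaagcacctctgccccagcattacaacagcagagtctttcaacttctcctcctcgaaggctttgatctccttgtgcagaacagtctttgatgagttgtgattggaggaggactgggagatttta
The Uncx window held a homeodomain match next to a nuclear receptor half-site, and all 3 printed windows of CGE regions held the palindromic E-box CAGCTG once. CAGCTG stood in 22.0% of such windows over all regions tested below, and windows this few do not describe the rest. The B3galt1 window held 2 nuclear receptor half-sites and 1 CAGCTG, while the Nedd1 window held neither and the Nars2 window held no match to any of the 12. A window at the centre of the domain over Nr2f1, which was also higher in CGE, held no match either.

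By region counts LGE and CGE were the closest pair among the eminences. Peaks of the 6 eminence samples were merged, and 77217 merged regions had a peak in all 6. Across them the log2 CPM (counts in a region scaled by the sample's total in these regions, with TMM factors) correlated at r = 0.966 between the LGE samples and r = 0.970 between the CGE samples. Across LGE and CGE the 4 pairs gave r = 0.937 to 0.956, whereas pairs of either with an MGE sample gave r = 0.877 to 0.917. These correlations are across regions, which are not independent. The standard deviation of the fitted log2 folds was 0.560 between LGE and CGE, and it was larger when MGE was set against LGE (0.841) or against CGE (0.801).

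With edgeR's quasi-likelihood test and Benjamini-Hochberg adjustment, 0 regions (0%) passed an adjusted p of 0.05 between LGE and CGE, and the smallest adjusted p was 0.0726. The same fit called 8551 regions (11.1%) between MGE and LGE and 7406 (9.59%) between MGE and CGE. Without adjustment 9630 regions passed p of 0.05 between LGE and CGE, and DESeq2 called 3198. The count also depended on a single library, since 681 regions were called without LGE 2. A weaker rule is therefore used below: a feature is called apart in both replicates where its unadjusted p was 0.05 or less and both LGE samples lay above, or both below, both CGE samples. By this rule 4111 regions (5.32%) were higher in LGE and 5516 (7.14%) higher in CGE.

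A property of the files moves with this split. Peaks were called separately in each sample, over 87.2 and 118 Mb in LGE 1 and LGE 2 but over 127 and 156 Mb in CGE 1 and CGE 2, and a count exists only where a peak was called. The covered length of a region in LGE was a median 0.853 times that in CGE over all tested regions, 1.02 times among regions apart and higher in LGE, and 0.543 times among those higher in CGE. With the covered length as an offset in the model, the median log2 fold of all regions shifted to 0.27, and 11377 regions were apart and higher in LGE but only 516 higher in CGE. With each sample's offset centred on its median, an alternative added after seeing the data, the median was 0.04 and the split was 5476 to 2812. A wider call can itself follow from more accessible DNA, and the part of peak calling in the split was not tested. Apart in both fits, the plain one and the one with the uncentred offset, were 3813 regions higher in LGE and 485 higher in CGE.

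The ratios repeated between samples that shared no library. The log2 ratio of LGE 1 to CGE 1 and that of LGE 2 to CGE 2 correlated at r = 0.613 over the 77217 regions. The 1000 regions with the highest ratio between the samples numbered 1 had a median of 1.15 there and 1.14 between the samples numbered 2, where 94.0% of them lay above 0, against 49.4% of all regions. The 1000 lowest had a median of -1.99 between the samples numbered 1 and -0.68 between those numbered 2, with 84.7% below 0 against 50.6% of all regions. In the reverse order, the 1000 highest between the samples numbered 2 had a median of 1.43 there and 0.90 between those numbered 1, with 92.4% above 0 against 52.6% of all regions. The 1000 lowest had -1.62 and -1.08, with 97.9% below 0 against 47.4%. Both ends thus kept their side in most regions whichever pair ranked them.

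**Figure D1:**
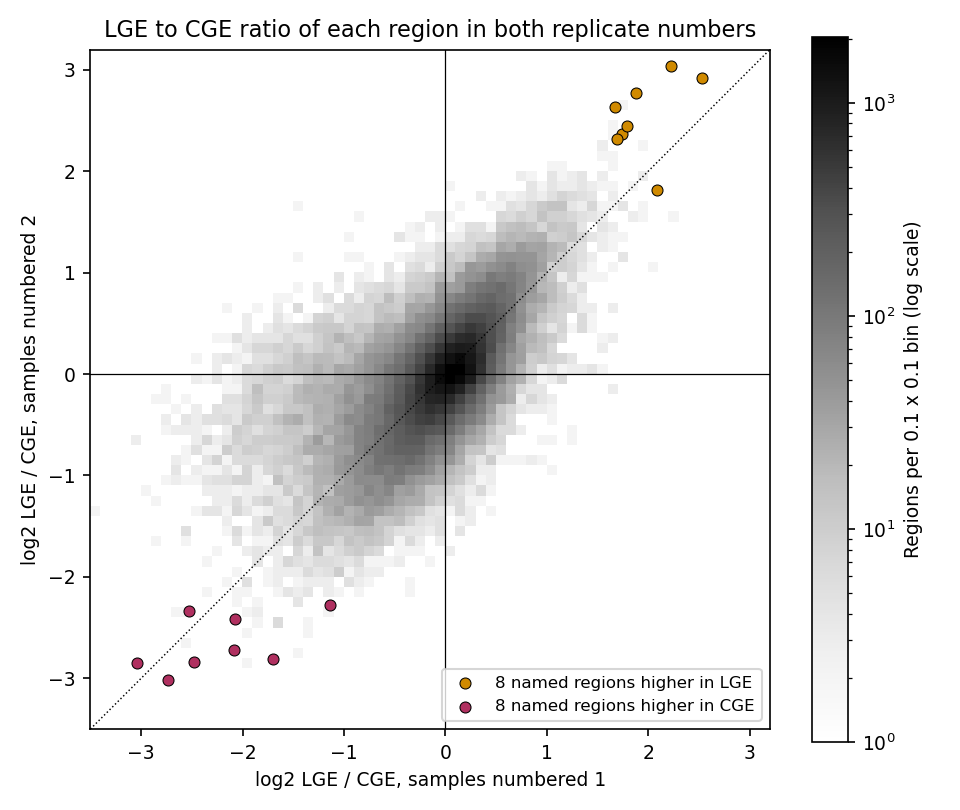
Log2 ratio of LGE to CGE CPM in the 77217 tested regions, between the samples numbered 1 (horizontal axis) and between those numbered 2 (vertical axis). The grey scale gives regions per bin on a log scale and the coloured points are the 16 named regions. The cloud follows the diagonal with r = 0.613, and its spread toward CGE is wider between the samples numbered 1.

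Regions apart in both replicates were mostly away from promoters. Promoters made up 20.1% of all tested regions, 11.8% of those higher in LGE and 3.34% of those higher in CGE. Intergenic regions made up 38.7%, 42.3% and 45.9% in the same order, and the median distance to the nearest start site grew from 22745 bp to 37867 and 51326.5 bp. The CGE-higher regions were also the weaker ones, with median CPM of 2.59 and 2.43 in the LGE samples and 5.07 and 5.50 in the CGE samples. Those higher in LGE had medians of 8.92 and 9.67 in LGE and 5.26 and 4.77 in CGE. A log2 fold beyond 1 in size was reached by 33.3% and 50.8% of the LGE-higher and CGE-higher regions.

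The named regions are ordered by the smaller of their plain and offset folds. The first toward LGE lay in intergenic DNA 629728 bp from the start of Nedd1, which encodes a protein of the gamma-tubulin ring complex (chr10:92091374-92092692). Its CPM was 11.9 and 23.4 in LGE and 2.87 and 3.00 in CGE, a log2 fold of 2.59 ± 0.33 (SE, n = 2 per group; edgeR adjusted p = 0.0922). MGE lay nearer CGE, at 4.32 and 3.97, while the CTX samples read 15.2 and 33.6. A second region, 7089 bp from Nars2, the mitochondrial asparaginyl-tRNA synthetase gene (chr7:96943627-96944416), had 3.99 and 5.89 CPM in LGE against 0.459 and 0.276 in CGE, a log2 fold of 3.74 ± 0.50 (edgeR adjusted p = 0.0922). CGE was close to empty here, and MGE read 0.862 and 1.65. In an intron of Stk39, a kinase gene, with B3galt1 as the nearest start (chr2:68282840-68283920), LGE read 4.37 and 7.44 CPM against 0.344 and 0.551 in CGE, a log2 fold of 3.72 ± 0.45 (edgeR adjusted p = 0.0857). There MGE was higher still, at 11.6 and 21.3, so CGE was the low eminence rather than LGE the high one. The most accessible of the 8 named LGE regions was intronic in Tanc1, a postsynaptic scaffold gene (chr2:59652537-59654361), with 36.8 and 46.4 CPM in LGE against 11.1 and 8.90 in CGE, and 23.3 and 31.4 in MGE. The other 4, nearest to Gm39653 (in an exon of Adam23), Topbp1, Kcnj2 and Mpdz, had log2 folds of 2.19 to 2.48. At Kcnj2, a potassium channel gene 777183 bp away, LGE read 13.5 and 20.5 CPM, CGE 3.71 and 3.57 and MGE 10.4 and 13.8, so MGE stood with LGE. At Mpdz, a gene of a multiple PDZ domain protein, LGE read 6.53 and 8.94, CGE 1.54 and 1.23 and MGE 1.96 and 2.61, so MGE stood with CGE.

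Toward CGE, the region with the smallest p of all lay in an intron of Ptprg, a receptor-type tyrosine phosphatase gene (chr14:12081839-12083004). Its CPM was 1.85 and 1.51 in LGE and 12.54 and 13.9 in CGE, a log2 fold of -2.97 ± 0.24 (SE, n = 2 per group; edgeR adjusted p = 0.0726). MGE lay between, at 6.13 and 5.37. Next stood an intergenic region 23869 bp from Uncx, a homeobox gene (chr5:139567767-139568989), with 3.90 and 3.27 CPM in LGE and 18.2 and 24.4 in CGE, a log2 fold of -2.57 ± 0.26 (edgeR adjusted p = 0.0786). MGE was again intermediate, at 10.2 and 7.48. Another, 202763 bp from Etaa1, a gene of the replication stress response (chr11:17750166-17751112), read 0.689 and 0.811 in LGE, 7.44 and 10.1 in CGE, and 1.99 and 1.62 in MGE, so that CGE stood alone. The log2 fold was -3.55 ± 0.31 (edgeR adjusted p = 0.0764). Intronic regions of Bicc1, Tmem117 and Csmd1 and an intergenic one 52064 bp from Dll1, a Notch ligand gene, followed with log2 folds of -4.05, -2.71, -2.50 and -1.78. The Dll1 region read 4.14 and 1.99 in LGE, 9.69 and 11.5 in CGE, 1.14 and 1.42 in MGE, and 26.2 and 22.9 in CTX. The intronic Epb41 region rested on 1 library, with 0.00820 and 1.18 CPM in LGE against 2.42 and 7.98 in CGE, and its unadjusted p rose to 0.253 without CGE 2.

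**Figure D2:**
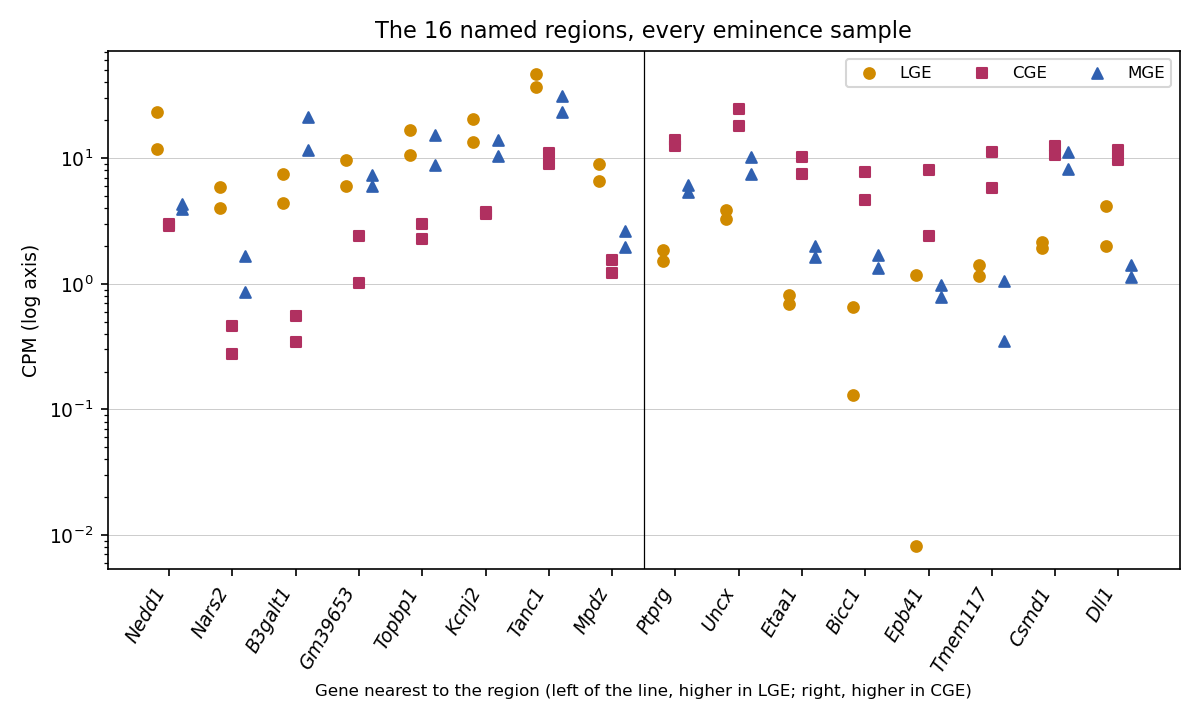
CPM (log axis) of the 16 named regions in the LGE, CGE and MGE samples, 1 point per sample, ordered by direction and size. Both LGE samples lay above both CGE samples in the left 8 regions and below them in the right 8, by the way the regions were chosen, and the MGE samples fell on either side.

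Which of them MGE lay nearer to depended on the set of regions. On the log2 scale MGE lay nearer LGE in 51.5% of all regions, in 49.8% of those apart and higher in LGE and in 44.0% of those higher in CGE, but in 54.8% of those higher in CGE in both fits. CTX 1 lay nearer CGE in 58.9% of all regions and in 73.1% of the LGE-higher ones. In the CGE-higher regions CTX 1 was nearer CGE in 52.3%. CTX 2, the E14.5 sample, was nearer CGE in 48.8% of all regions and 60.3% of the LGE-higher ones, but in 43.1% of the CGE-higher ones.

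The CGE markers Nr2f1 and Nr2f2 went the way the labels say. The region over Nr2f1 was a domain of 54006 bp (chr13:78159945-78213950) with 295 and 289 CPM in LGE, 541 and 660 in CGE and 422 and 368 in MGE. LGE was lowest, CGE highest, with no overlap. The log2 fold was -1.04 ± 0.14 (edgeR adjusted p = 0.0922). A second region, 124483 bp away (chr13:78324240-78326071), read 1.197 and 0.838 in LGE against 5.61 and 5.53 in CGE, a log2 fold of -2.44. The domain over Nr2f2 spanned 49591 bp (chr7:70323186-70372776) with 145 and 193 CPM in LGE, 308 and 481 in CGE and 341 and 284 in MGE, a log2 fold of -1.22 ± 0.23 (edgeR adjusted p = 0.118). Of the 8 tested regions within 200 kb of these genes all 8 had a fold toward CGE, 2 of 2 at Nr2f1 and 6 of 6 at Nr2f2, and 2 and 3 of them were apart in both replicates. Of all regions 7.14% were apart and higher in CGE, and about as many had a fold to either side.

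At both domains peaks covered more DNA in CGE, and per covered kilobase the groups overlapped. Peaks covered 27841 and 38891 bp of the Nr2f1 domain in LGE and 51112 and 53877 bp in CGE, and per covered kilobase the values were 10.6 and 7.42 CPM against 10.6 and 12.3. Over the Nr2f2 domain the covered lengths were 18965 and 33157 bp against 42807 and 49591 bp, and the values per covered kilobase, 7.67 and 5.82 against 7.20 and 9.70, overlapped between the groups. With the covered-length offset the log2 folds of the 2 domains fell to -0.34 and -0.32, and neither passed an unadjusted p of 0.05. With the centred offset they were -0.58 and -0.57, and both passed it. One Nr2f2 region, 189625 bp from the start, turned from -0.94 to 0.80 under the offset and to 0.55 under its centred form. Regions at 13951 and 56653 bp turned to 0.24 and 0.02 under the offset, which moved the median of all regions to 0.27. Under its centred form they were at 0.01 and -0.21. As gene counts (peaks overlapping the gene body or 2000 bp upstream, as CPM over all genes), Nr2f1 read 179 and 161 in LGE against 445 and 681 in CGE, a log2 fold of -1.73 ± 0.21 (edgeR adjusted p = 0.186). Nr2f2 read 82.2 and 129 against 256 and 496, a log2 fold of -1.83 ± 0.34 (edgeR adjusted p = 0.826), and the offset, which moved the median of all genes to 0.29, brought both to -0.03. With the centred offset both were at -0.30, and neither passed an unadjusted p of 0.05.

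Regions that were apart gathered at certain genes, counted by nearest start site within 500 kb. Toward LGE stood Mpped2, which encodes a metallophosphoesterase, with 12 of 30 regions higher in LGE and 0 higher in CGE. The CPM summed over those 12 was 321 and 339 in LGE, 196 and 192 in CGE and 272 and 300 in MGE. Tcf7l2, a transcription factor of the Wnt pathway, had 10 of 49 and 0, with sums of 284 and 351 in LGE against 198 and 216 in CGE. Tenm4, a teneurin gene, had 15 of 68 higher in LGE and 4 higher in CGE, Ano1, a chloride channel gene, 7 of 14 and 0, and Parp11, an ADP-ribosyltransferase gene, 7 of 21 and 0. With the centred offset 4 of the 12 Mpped2 regions, 6 of the 10 at Tcf7l2, 11 of the 15 at Tenm4, 3 of the 7 at Ano1 and 5 of the 7 at Parp11 were apart in the same direction. The share of all regions higher in LGE was 5.32% and of those higher in CGE 7.14%, and the loci were picked for their counts, so the excess is by choice.

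Toward CGE the fullest loci were Cdh4, the R-cadherin gene, with 18 of 89 regions higher in CGE and 1 higher in LGE, and Nr2f2 itself, with 13 of 23 and 0 over its wider surroundings. At the 13 Nr2f2 regions the summed CPM was 248 and 307 in LGE, 485 and 729 in CGE and 482 and 456 in MGE, so that LGE was lowest, CGE 1 was close to MGE and CGE 2 was above it. Celf2, an RNA-binding splicing regulator, had 12 of 46 and 1, and Ptprn2, a gene of dense-core vesicles, had 11 of 31 and 0. Fzd1, a Wnt receptor gene, had 11 of 36 and 1, and Tshz3, a zinc finger homeobox gene, 10 of 36 and 0. The centred offset left 7 of the 18 Cdh4 regions, 7 of the 13 Nr2f2 regions, 6 of the 12 Celf2 regions, 6 of the 11 Ptprn2 regions, 8 of the 11 Fzd1 regions and 0 of the 10 Tshz3 regions apart in the same direction, and over all regions of the locus it turned the median of the Celf2 locus from -0.35 to 0.11.

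**Figure D3:**
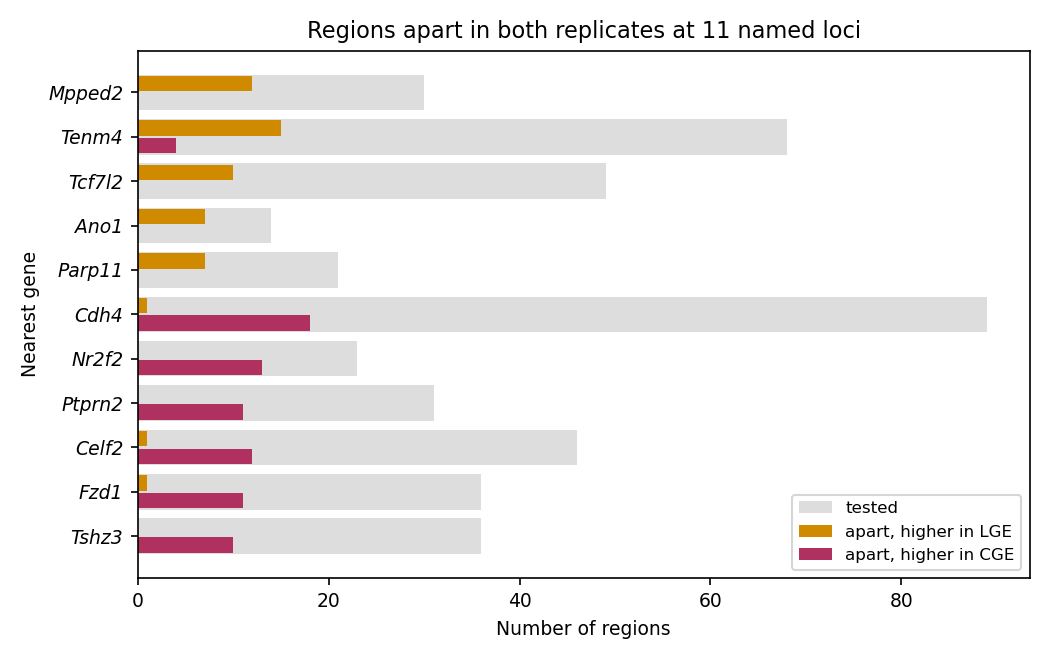
Number of tested regions (grey), regions apart and higher in LGE (orange) and regions apart and higher in CGE (red) whose nearest start site belongs to each of 11 named genes. Opposite calls are few, at most 4 of 68 at Tenm4.

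By gene counts 2 of 17145 genes (0.0117%) passed an adjusted p of 0.05, and in both the counts came from a neighbour's promoter. Stap2, a signalling adaptor gene, read 3.38 and 4.60 in LGE, 112 and 102 in CGE and 121 and 103 in MGE (edgeR log2 fold -4.75 ± 0.21, adjusted p = 0.0024). The counts came from a peak over the neighbouring Mpnd promoter whose edge reached into the 2000 bp upstream of Stap2 in CGE and MGE and stopped short of it in LGE. The merged region at Mpnd (chr17:56006966-56011299) read 97.7 and 95.04 in LGE and 93.2 and 94.3 in CGE, a log2 fold of 0.04. For 4930415O20Rik the values were 9.21 and 8.90 against 65.7 and 78.8 (edgeR log2 fold -3.00 ± 0.15, adjusted p = 0.0026), again through the edge of a peak, here at Ccnt1, whose region read 53.5 and 63.0 in LGE and 48.9 and 66.6 in CGE. In all 243 genes (1.42%) were apart and higher in LGE and 414 (2.41%) higher in CGE.

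Counting only peaks within 1000 bp of a start site called 5 of 15594 genes (0.0321%), all higher in CGE: St8sia3, Asb6, Slc17a6, Snapc2 and Gm5089. St8sia3 read 0 and 0 in LGE, 62.1 and 60.7 in CGE and 79.8 and 79.7 in MGE. Asb6 read 1.86 and 1.59 in LGE, 33.6 and 40.3 in CGE and 39.7 and 34.7 in MGE. Snapc2 read 77.0 and 69.6 in LGE against 211 and 196 in CGE, and Gm5089 20.2 and 22.0 against 72.6 and 61.0. The part of peak edges, as at Stap2, in these genes was not tested. Slc17a6, the vesicular glutamate transporter VGLUT2, read 16.6 and 13.3 in LGE and 80.4 and 92.5 in CGE (edgeR log2 fold -2.53 ± 0.18, adjusted p = 0.0239). Over its promoter CGE 1 and CGE 2 each had 1 peak, of 8414 and 9352 bp, where LGE 1 had 4 and LGE 2 had 2 separate peaks. Summed over the merged promoter region (chr7:51620751-51630102), LGE read 37.2 and 38.3 CPM and CGE 45.7 and 58.4, a log2 fold of -0.46 ± 0.17. The groups stayed apart, by far less than the start-site count gave. Peaks covered 4880 and 7690 bp of it in LGE and 8414 and 9352 bp in CGE, and the log2 fold turned to 0.11 with the offset and was -0.14 when centred, neither of which passed an unadjusted p of 0.05. An intronic region 10355 bp from the start (chr7:51632361-51633955) read 11.5 and 7.31 CPM in LGE and 14.6 and 15.7 in CGE, a log2 fold of -0.69 that was -0.49 with the offset and -0.74 when centred, and of these the centred value passed an unadjusted p of 0.05. Over the gene body the count was 58.8 and 52.3 against 77.7 and 86.7, a log2 fold of -0.56 ± 0.13.

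Sall4, a zinc finger gene of stem cells, was the named gene toward LGE with the smallest p. Its gene count was 58.1 and 72.3 in LGE, 26.1 and 27.4 in CGE and 47.4 and 42.3 in MGE, a log2 fold of 1.29 ± 0.15 (edgeR adjusted p = 0.186). The Sall4 promoter region (chr2:168761842-168767724) gave 53.2 and 70.5 CPM against 22.6 and 26.5, and the log2 fold of 1.33 was 1.11 with the offset. CGE was the low eminence here. Lin28a, an RNA-binding regulator of developmental timing, read 49.2 and 109 in LGE against 30.6 and 35.0 in CGE, with LGE 2 well above LGE 1. A230072I06Rik, Cyth4, Gm19402, Olfr424, Tmem236 and Pitpnm1 completed the 8, with log2 folds of 1.19 to 1.61. Pitpnm1 rested on LGE 1, since it read 96.8 and 33.1 against 27.6 and 27.5 and its log2 fold dropped to 0.25 without that library. The 8 toward CGE were sparse genes or genes with longer covered length in CGE, namely Dntt, Kncn, Gm11541, Pzp, Armc4, Lrrc72, Npy4r and Bax, with log2 folds of -1.98 to -4.45. With the centred offset Lrrc72 and Npy4r turned to 0.19 and 0.07, and Armc4 and Bax came to -0.09 and -0.12, and Kncn rested on CGE 2, at 44.2 against 2.33 in CGE 1.

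The gene lists add the surrounding biology. Of 13 tested genes of the CGE and its interneurons (Vip, the 14th of the list, was too sparse), 5 were apart and higher in CGE (2.41% of all genes) and 0 higher in LGE (1.42% of all genes), with a median log2 fold of -0.15 against -0.002 over all genes. Besides Nr2f1 and Nr2f2 these were Cck, a neuropeptide gene (6.72 and 5.92 in LGE, 11.6 and 10.7 in CGE), Npas1, a transcription factor gene (42.01 and 41.3 against 50.0 and 54.8), and Adarb2, an RNA-editing family gene (115 and 112 against 165 and 172). Under the covered-length offset, which moved the median of all genes to 0.29, the log2 folds of these 3 were 0.19, 0.13 and 0.45. Under the centred form they were -0.08, -0.14 and 0.19, and none passed an unadjusted p of 0.05 in either. Prox1, a homeobox gene of CGE interneurons, read 115 and 123 against 128 and 137, and Sp8 48.02 and 86.4 against 41.2 and 76.9, and neither passed p of 0.05.

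Of the 18 LGE and striatal genes 1 was apart and higher in LGE (1.42% of all genes) and 0 higher in CGE (2.41%), with a median of -0.05. That gene was Meis2, a TALE homeodomain gene of the striatal lineage, at 559 and 651 in LGE, 479 and 491 in CGE and 308 and 319 in MGE, a log2 fold of 0.32 ± 0.11. It was 0.41 with the offset and 0.15 when centred, and neither passed an unadjusted p of 0.05. Its regions, looked at after this value was seen, were apart and higher in LGE in 6 of 20 and higher in CGE in 0, against 5.32% and 7.14% of all regions. The widest lay 193316 bp from the start (chr2:115868164-115871196), with 15.3 and 12.9 CPM in LGE, 5.94 and 5.58 in CGE and 1.72 and 1.86 in MGE, a log2 fold of 1.29, and 1.04 with the offset. LGE was highest and MGE lowest there. The other striatal regulators gave little: Ebf1 read 290 and 283 against 319 and 322, Isl1 71.5 and 95.4 against 83.2 and 115, and Foxp1 447 and 432 against 487 and 446. None of these 3 passed p of 0.05.

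Of 12 GABAergic and subpallial genes shared by both eminences 0 were apart as plain gene counts, with a median of -0.01. Of all genes 1.42% were apart and higher in LGE and 2.41% higher in CGE, so a list this short would hold few at those shares. Of the 80 regions within 200 kb of these genes 10% were higher in LGE and 3.75% higher in CGE. The shares of all regions within that distance were 5.09% and 6.56%. Gsx2, a homeobox gene of LGE progenitors, read 40.3 and 141 in LGE and 47.8 and 45.4 in CGE, overlapping between the groups as a gene count. Its log2 fold of 0.96 was 0.75 with the offset and 0.50 when centred, and both of the latter passed an unadjusted p of 0.05. Of its 3 intergenic regions, looked at after this value was seen, 2 were apart and higher in LGE (5.32% of all regions), which both passed p of 0.05 with the offset and neither with its centred form. The third went the other way, at 2.21 and 2.55 CPM in LGE and 3.51 and 3.33 in CGE. Among the 2 was one 5096 bp away (chr5:75080698-75086539) with 72.7 and 85.8 CPM against 58.1 and 60.1. The promoter region of Gsx2 itself read 104 and 138 against 89.0 and 96.8, with an unadjusted p of 0.0583. Of 6 dorsal LGE and olfactory bulb genes 0 were apart (1.42% of all genes toward LGE and 2.41% toward CGE), with a median of 0.13. Of the 66 regions within 200 kb of these 10.6% were higher in LGE and 4.55% higher in CGE, against 5.09% and 6.56% of all.

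Patterning genes were apart in both directions. Of 16 tested, 2 were apart and higher in LGE (1.42% of all genes) and 3 higher in CGE (2.41% of all genes), the latter being Nr2f1, Nr2f2 and Wnt7b. Zic1, a zinc finger gene of the septum and other midline tissue, read 99.3 and 125 in LGE, 48.7 and 55.7 in CGE and 125 and 195 in MGE, a log2 fold of 1.11 ± 0.24, and 0.95 with the offset. The region shared by Zic1 and its neighbour Zic4 (chr9:91358808-91372066) gave 90.9 and 123 CPM against 42.2 and 54.0, a log2 fold of 1.15. A region 149693 bp from Zic4 (chr9:91528335-91529538) went the other way, at 1.57 and 2.16 CPM in LGE and 4.83 and 4.74 in CGE, a log2 fold of -1.36 that was -0.47 when centred. Fgf15, a fibroblast growth factor gene of the ventral forebrain, read 58.1 and 65.4 in LGE, 45.2 and 41.0 in CGE, and 65.7 and 44.3 in MGE. Its log2 fold of 0.52 was 0.48 with the offset and 0.24 when centred, and neither passed an unadjusted p of 0.05. Wnt7b read 69.9 and 64.2 against 106 and 120, a log2 fold of -0.75 that turned to 0.32 under the offset and 0.06 when centred. Fgfr3, a fibroblast growth factor receptor gene, read 61.9 and 61.3 in LGE and 68.0 and 92.9 in CGE. Its log2 fold of -0.39 turned to 1.249 under the offset and 1.00 when centred. A region over an Fgfr3 start site (chr5:33728330-33732690) had a peak in both CGE samples, at 3.79 and 5.86 CPM, and in neither LGE sample. The part of this peak in the turn was not tested.

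As plain gene counts, most progenitor genes had a fold toward LGE and most neuronal genes one toward CGE, a contrast that the gene counts did not show with either covered-length offset. Of 13 progenitor genes 11 had a fold toward LGE, as had 8495 of all 17145, and 2 were apart (1.42% of all genes), the Notch target Hes1 (138 and 164 against 111 and 126) and Hmga2, a chromatin protein gene (318 and 343 against 288 and 245), with a median of 0.18. Of 8 postmitotic neuron genes 1 had a fold toward LGE and 2 were apart toward CGE (2.41% of all genes), Rbfox3 (257 and 239 against 336 and 372) and Map2 (257 and 217 against 304 and 286), with a median of -0.18. The list medians were 0.34 and 0.39 with the covered-length offset, against 0.29 over all genes, and 0.085 and 0.12 with the centred one, against 0.03. The difference between the lists was not tested. With the centred offset Hes1 and Hmga2 were at 0.085 and 0.37, and neither passed an unadjusted p of 0.05. Under the covered-length offset Rbfox3 and Map2 turned to 0.34 and 0.44, and under the centred one to 0.06 and 0.18. Counted by regions within 200 kb, the progenitor list had 8.59% of 163 regions higher in LGE and 4.91% higher in CGE, and the neuronal list 2.91% and 13.6% of 103, against 5.09% and 6.56% of all 69537 regions within that distance. The region medians kept the order with the offset, at 0.32 for the progenitor list, 0.20 for the neuronal list and 0.27 for all of these regions, and with its centred form, at 0.09, -0.03 and 0.03. Rbfox3 alone supplied 10 of the 14 CGE-higher regions of the neuronal list.

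**Figure D4:**
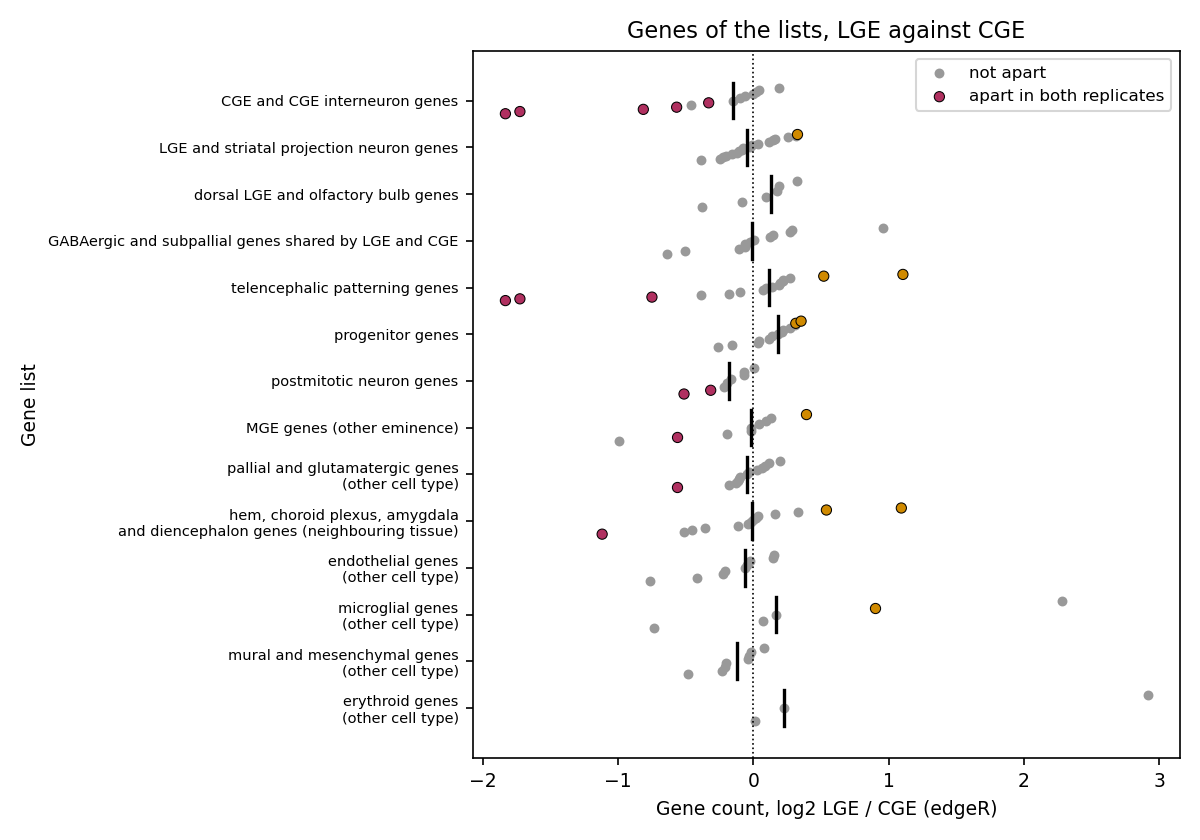
Log2 fold of LGE over CGE in gene counts for each tested gene of the 14 lists (1 point per gene). Outlined points are apart in both replicates (orange, higher in LGE; red, higher in CGE), black bars are list medians, and the dotted line is the median of all 17145 genes. List medians run from -0.18 for postmitotic neuron genes to 0.22 for erythroid genes.

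Markers of tissue that a dissection could include are given as sums. The pallial and glutamatergic genes summed to 812 and 889 in LGE and 840 and 913 in CGE. Of these 13 genes 0 were apart toward LGE (1.42% of all genes) and 1, Slc17a6, toward CGE (2.41%). Of the 75 regions within 200 kb of them 1.33% were higher in LGE and 10.7% higher in CGE. The shares of all regions within that distance were 5.09% and 6.56%. The MGE genes summed to 516 and 534 in LGE, 524 and 517 in CGE and 1420 and 1210 in MGE. Nkx2-1, the factor that defines the MGE, read 36.4 and 33.7 in LGE and 38.5 and 32.4 in CGE against 540 and 363 in MGE. Of the 9 MGE genes Shh was apart toward CGE (27.4 and 32.9 against 40.6 and 48.4), as were 2.41% of all genes. Lhx8 was apart toward LGE (67.4 and 76.4 against 52.9 and 56.7), as were 1.42% of all genes. Genes of the cortical hem, choroid plexus, amygdala and diencephalon summed to 801 and 1101 in LGE and 791 and 980 in CGE. Among them Ttr, the choroid plexus transthyretin gene, read 15.2 and 15.99 in LGE against 9.70 and 4.91 in CGE, and Otx2 89.6 and 110 against 61.2 and 76.4. Tfap2d was apart toward CGE at 4.73 and 13.1 against 17.1 and 21.6. In the regions within 200 kb of this list 17.0% of 141 were higher in LGE and 7.80% higher in CGE, against 5.09% and 6.56% of all regions within that distance, with Tcf7l2 (10) and Otx2 (5) in front. The part of neighbouring tissue in the values of Zic1, Sall4 and the other genes above was not tested. Of the 9 endothelial and 8 mural genes and the 3 of 7 erythroid genes that were tested 0 were apart. Of the 5 microglial ones tested P2ry12 was apart toward LGE (18.8 and 20.4 against 13.2 and 7.80). Of all genes 1.42% were apart and higher in LGE and 2.41% higher in CGE, so lists this short would hold few at those shares. No gene of these lists was at 0 in all 6 samples.

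The deposited motif counts, which sum the accessible peaks that hold each of 579 transcription factor motifs, did not part the 2 regions by the adjusted test. With edgeR 0 motifs (0%) passed an adjusted p of 0.05, 60 passed an unadjusted p of 0.05, and DESeq2 called 14. Between MGE and LGE and between MGE and CGE edgeR also called 0, and 25 and 17 passed an unadjusted p of 0.05. The median absolute log2 fold was 0.154 between LGE and CGE, 0.121 between MGE and LGE and 0.107 between MGE and CGE. By this median LGE and CGE were not the closest pair, but some motif counts differed widely between samples of the same region. MEIS3 read 2647 and 6751 in CGE, 2777 and 6727 in MGE, and 2647 and 2649 in LGE. The order of the pairs by motif counts is therefore only loosely fixed. By the weaker rule 39 motifs (6.74%) were higher in LGE and 21 (3.63%) higher in CGE. The smallest p toward LGE belonged to Hoxa11, a sparse motif at 54.8 and 40.1 CPM of motif counts in LGE and 19.0 and 19.9 in CGE, a log2 fold of 1.29 ± 0.20 (edgeR adjusted p = 0.441). SOX4, a factor of young neurons, read 181 and 168 against 130 and 117, a log2 fold of 0.50. Rarb, a retinoic acid receptor, read 169 and 153 against 115 and 121, a log2 fold of 0.44. Arid3b, Shox2, USF1, RUNX1 and PHOX2A, at log2 folds of 0.26 to 0.47, completed the 8 named toward LGE. Hoxa11, Shox2 and PHOX2A are homeodomain motifs and USF1 is a bHLH motif that reads an E-box, and none of these 4 is in the lists below.

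Motifs higher in CGE included several E-boxes. Of the 14 bHLH motifs listed, which leave out USF1, 6 were apart and higher in CGE (3.63% of all motifs) and 0 higher in LGE (6.74%), with a median log2 fold of -0.23 against 0.01 over all 579. A further 4 had a fold toward LGE, NHLH1 most at 0.30. The 6 were NEUROD1 (374 and 347 in LGE, 427 and 428 in CGE), TCF4 (803 and 793 against 1047 and 948), BHLHE22 (211 and 235 against 266 and 272), Hes1 (410 and 378 against 608 and 585), and OLIG1 and OLIG2, whose counts were identical at 181 and 223 against 256 and 261. These motifs share letters and so are not independent. The homeodomain list had 3 of 16 apart toward CGE and 0 toward LGE, with a median of -0.05 and 7 of the 16 toward LGE, LHX6 most at 0.61, while Hoxa11, Shox2 and PHOX2A outside it were apart toward LGE. GSX2 read 819 and 870 in LGE against 1080 and 1167 in CGE, a log2 fold of -0.41, and LHX2 and OTX2 -0.22 each. The 13 tested motifs of COUP-TF and related nuclear receptors had a median log2 fold of -0.09. Of them 3 had a fold toward LGE, as had 296 of all 579. Rarb was apart toward LGE (6.74% of all motifs) and 0 were apart toward CGE (3.63%). The COUP-TF motifs themselves were not apart, and with n = 2 per group a small difference could be missed. NR2F1 read 329 and 306 in LGE and 330 and 348 in CGE, a log2 fold of -0.09 ± 0.08, and NR2F2 332 and 362 against 304 and 383, a log2 fold of 0.01 ± 0.18. Nr5a2, SOX8, HOXA2, GLI2, Foxo1 and NFIC::TLX1, at log2 folds of -0.28 to -1.10, were the other motifs named toward CGE. At Nr5a2, HOXA2, GLI2, GSX2, Foxo1 and Hes1, MGE 2 lay above MGE 1 by more than the LGE samples differed, as at Foxo1 with 74.9 and 151 in MGE against 71.0 and 66.3 in LGE and 151 and 143 in CGE.

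The letters of the regions can be set beside this, in sets of regions that were themselves chosen by their counts. The homeodomain core TAATTA stood in the central 300 bp of 10.4% of all tested regions, 11.5% of those higher in LGE and 20.2% of those higher in CGE. It reached 30.9% in the 485 regions higher in CGE in both fits. Away from promoters the shares were 12.4%, 12.55%, 20.6% and 31.3%, and within windows of 42% to 48% GC they were 14.02%, 14.2%, 22.4% and 29.7%. The E-boxes were less common in LGE-higher windows and more common in CGE-higher ones than in all windows. CATCTG stood in 24.8% of all distal windows, 20.0% of the LGE-higher and 29.3% of the CGE-higher ones, and CAGCTG in 23.2%, 19.9% and 27.1%. The MEIS letters TGACAG stood in 25.04% of all distal windows, 27.0% of the LGE-higher ones and 25.6% of the CGE-higher ones. In both fits they stood in 27.7% of the 3372 distal LGE-higher and 33.2% of the 479 distal CGE-higher windows. The half-site AGGTCA, which COUP-TF receptors read, stood in 14.4% of all windows, 17.2% of the LGE-higher, 15.9% of the CGE-higher and 17.5% of the 485. Within the GC band, away from promoters, the order of LGE and CGE turned, at 14.3%, 14.7%, 15.4% and 19.6%. SOX letters were in 15.5%, 19.1% and 19.0%. The Uncx window printed above is an example with both TAATTA and CAGCTG. The motif counts of GSX2 and the E-box factors come from the same peaks, so they are not separate evidence.

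**Figure D5:**
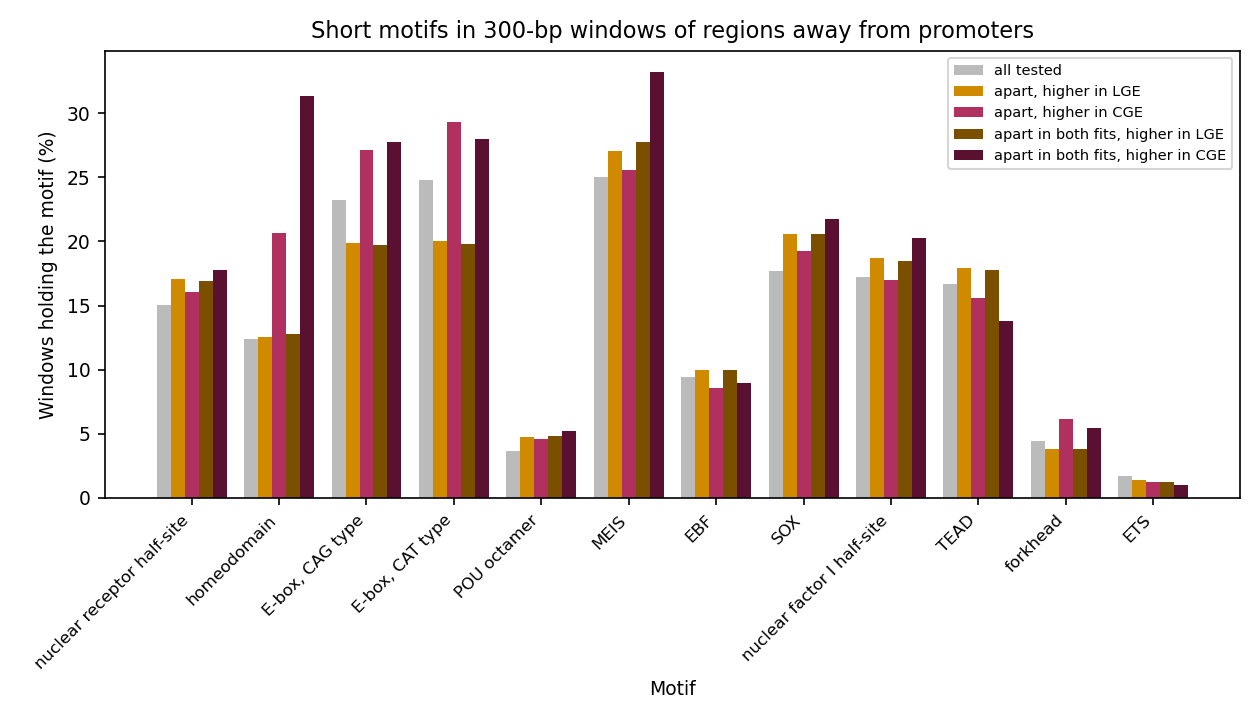
Share (%) of 300-bp windows at the centre of regions away from promoters that hold each of the 12 short motifs, for all tested regions (grey), regions apart and higher in LGE (orange) or CGE (red), and those apart in both fits (dark). The homeodomain bars rise from 12.4% of all windows to 20.6% and 31.3% of the CGE-higher ones and stay at 12.55% in the LGE-higher ones.

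Peaks present in one group and absent from the other were almost all on the CGE side. Of the merged regions 15824 had a peak in both CGE samples and in neither LGE sample, and 421 the reverse. The CGE-only peaks were weak, with a median of 0.662 CPM, and 69.5% of them lay in both CGE samples above the level that 5% of LGE 1 peaks fell under, 0.282 CPM. Of them 2942 had a peak in both MGE samples. The strongest by mean was intronic with Cpne8 as the nearest start (chr15:90535278-90536286) at 4.75 and 7.33 CPM, followed by an intronic one nearest to Slc16a7 (chr10:125287280-125289176) at 3.79 and 7.43, the latter without a peak in either MGE sample. The strongest LGE-only peak, intronic and nearest to Tmem252 (chr19:24742259-24743045), read 2.45 and 4.50 CPM. No count exists where no peak was called, so no fold is given. The difference in number moves with the length called per sample above, and the part of peak calling in it was not tested.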

How the data were processed

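Single-nucleus ATAC-seq libraries (droplet kit) of 8 samples were processed by the authors with Cell Ranger ATAC 1.2.0 on GRCm38 (mm10), per the labels. The authors deposited, for each sample, raw counts of cut sites per peak and nucleus, raw counts per motif and nucleus, and the peak coordinates. Peaks were called per sample. The sources used here do not give the rule that kept barcodes.

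Counts were summed over all nuclei per sample. No doublet caller was run, and the sources used here do not say whether doublets were removed. Peaks of the 6 eminence samples were merged, and the 77217 regions with a peak in all 6 were tested. Gene counts summed each sample's peaks overlapping a protein-coding gene of GENCODE M21 or the 2000 bp upstream. A single edgeR 4.0.16 quasi-likelihood model (R 4.3.3, TMM scaling, filterByExpr, Benjamini-Hochberg adjustment) held LGE, CGE and MGE. DESeq2 1.42.0, other scaling, covered-length and GC offsets, a replicate block and left-out libraries were alternatives. Named regions were, per direction, the 8 autosomal ones with the largest fold among those apart in both the plain and the covered-length fit, the size being the smaller of both folds, at a mean of 2 CPM or more. Named loci were the 6 genes with the most such regions net of opposite ones (1 locus is not reported here), and named genes every called gene, the 8 with the largest fold apart with a peak in all 6 samples, and the list genes. Named motifs were the 8 apart with the smallest p. Replicate numbers were to count as pairs if same-number deviations correlated above 0.1 for every pair of eminence groups, a rule that was not met. The correlations were 0.424 for LGE with CGE, 0.107 for LGE with MGE and -0.004 for CGE with MGE. LGE and CGE, the groups compared, thus did share variation by number, and the main fit did not model it. The comparison, gene lists and rules were chosen with earlier results of these data known. The edgeR fit was tested on simulated counts of regions and genes.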

Additional observations from a re-analysis of the deposited data

How the results depend on the processing

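Of regions called between LGE and CGE there were 0 in the main test, 3198 with DESeq2, 1345 with the covered-length offset, 94 with its centred form (added after seeing the data), 19 with a GC offset, and 0 to 681 leaving out 1 library. Regions apart in both replicates numbered 9627, against 1743 among regions of similar covered length, 3239 with all 8 samples and 5619 to 12563 leaving out 1 library. Genes called numbered 2, against 123 with DESeq2, 5 by start sites, 1 with either offset, 0 with the replicate block, 3 from LGE and CGE alone and 2 to 16 leaving out 1 library (16 without LGE 2). Genes apart numbered 657, against 1853 with the offset, 1142 from LGE and CGE alone and 371 to 1111 leaving out 1 library. DESeq2 called 14 motifs where edgeR called 0, and motifs apart numbered 60, against 106 with DESeq2, 108 with the replicate block and 14 to 94 leaving out 1 library. For MGE against LGE the 8551 regions became 13428 with DESeq2, 2660 at similar covered length, 456 with all 8 samples and 3712 to 10932 leaving out 1 library. For MGE against CGE the 7406 became 12397 with DESeq2, 4599 with the offset, 2380 at similar covered length, 227 with all 8 samples and 1897 to 10807 leaving out 1 library.

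The region counts above come from 77217 tested regions in the main test, 68065 with all 8 samples and 25297 at similar covered length. Similar covered length was asked of the LGE and CGE samples only. For MGE, the 2660 and 2380 called in that set were a share similar to that in the main test. The covered length of the MGE samples was left free there, so these counts do not speak to it. Regions apart at similar covered length split the other way, 1297 higher in LGE and 446 in CGE, against the main 4111 and 5516. The replicate block called 0 regions and left 10969 apart. The rule for pairing was not met over all pairs of eminence groups, so the block is only an alternative here. For LGE with CGE alone same-number deviations did correlate, at 0.424.

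Among the 24 regions and 38 genes followed through every alternative, signs turned as follows. Near Nr2f2 the region 189625 bp away went to 0.80 (offset) and 0.55 (centred), that at 13951 bp to 0.24 and 0.013, and that at 56653 bp to 0.018 (offset). Genes with both values went to 0.46 and 0.19 (Lrrc72), 0.33 and 0.073 (Npy4r), 0.45 and 0.19 (Adarb2), 0.32 and 0.064 (Wnt7b), 0.34 and 0.062 (Rbfox3), 0.44 and 0.18 (Map2) and 0.31 and 0.025 (Tfap2d). With the offset alone, which moved the median of all genes to 0.29, they went to 0.18 (Armc4), 0.19 (Cck), 0.13 (Npas1) and 0.093 (Bax, also 0.15 by start sites). Outside these features the Slc17a6 promoter region went to 0.11 (offset), and of genes not apart in the main test Isl1 went to 0.54 and 0.27, Ebf1 to 0.42 and 0.15, Foxp1 to 0.45 and 0.18, Prox1 to 0.27 and 0.0077 and Fgfr3 to 1.249 and 1.00. The cause was not tested. Over those 24 regions, 38 genes and 26 motifs, 355 of the region values, 380 of the gene values and 230 of the motif values kept direction and side of p of 0.05, while 19, 127 and 82 lost the latter and 5 and 19 region and gene values turned. With 2 samples a group, and MGE assumed to vary like them, folds of sparse features are loosely fixed. Leaving a filter on low counts out changed nothing for regions.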
